A study of Mus musculus with 24 samples.

Results

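The cells described here are the LiNKT cells (liver-resident invariant natural killer T cells) of untreated NOD mice, profiled 1 by 1 with SmartSeq2. A cell was kept if it held at least 100000 counts in total and fewer than 100 counts of the macrophage genes Lyz2, C1qa and Csf1r summed. This left 280 of the 284 untreated cells, and 280 of all 566 cells when those of the treated mice are included. The 4 cells left out were all below the minimum of counts, the deepest of them with 81613, whereas the shallowest cell kept held 101709. No untreated cell was left out for macrophage genes, and the highest sum of the 3 genes in a kept cell was 1 count.

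The series asks how LiNKT cells change in mice given αGalCer/CD1d-NPs, nanoparticles coated with CD1d molecules that present the glycolipid αGalCer. The untreated group consists of male NOD/ShiLtJ mice, which are prone to autoimmune diabetes, aged 13 to 15 weeks, with the cells of 3 mice pooled into 1 sample. The reference group holds the cells of 3 male NOD/ShiLtJ mice of the same age range that received 20 µg of αGalCer/CD1d-NPs 2 times a week for 5 weeks. Live cells with intermediate TCRβ staining that bound αGalCer/CD1d tetramers were sorted singly into plates in both groups, and the same filter left 259 of 282 treated cells (10 were below the minimum of counts and 13 were at or above the limit of macrophage counts). Each group is thus 1 sample, no difference between the groups has a replicate check or a test, and the intervals given cover counting error only. The labels do not say which cell came from which mouse.

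The depth of the untreated cells was 637857 counts in the median cell (up to 1398716 in the deepest) and 179113146 counts over all of them. A median of 865.5 genes per cell held at least 1 read (from 248 to 2052), and a median of 1.37% of the counts of a cell was mitochondrial (from 0.282% to 5.47%). Treated cells were alike in depth, with a median of 619373 counts and 866 genes. An rRNA gene, CT010467.1 (chromosome 17, 39846353 to 39848827, GRCm38), took a median of 22.4% of the counts of an untreated cell, from 0.253% to 57.5%, and the text gives the shares and levels of all other genes with these counts in the total. No cell name was shared by both tables. Ptprc, which encodes the pan-leukocyte protein CD45, was found in 67.1% of untreated cells and Gapdh in 62.5%, so that a cell without reads of a gene does not show that the gene was silent in it.

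iNKT cells are T cells whose semi-invariant TCR recognizes glycolipids presented by CD1d. They acquire an effector programme in the thymus under the transcription factor PLZF, encoded by Zbtb16, and are commonly divided into NKT1 cells (Tbx21, IFN-γ), NKT2 cells (Gata3, IL-4) and NKT17 cells (IL-17). Most iNKT cells of the mouse liver are known as NKT1 cells that stay in the sinusoids, where the chemokine receptor CXCR6 supports their survival and patrolling.

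The α-chain that defines these cells joins the segments Trav11 (chromosome 14, 53519303 to 53519859, GRCm38) and Traj18 (chromosome 14, 54200777 to 54200842). The 4 nucleotide junctions between these segments that recurred most often among the kept cells in the study's reconstruction of TCRs are printed because the joining of these segments is what defines the iNKT receptor. Each is written 5′ to 3′, and the capital marks the base in front of the 4 bases gata that all 4 junctions share.
junction 1: gggCgataga
junction 2: gtgggGgatag
junction 3: gtgggTgatag
junction 4: gtgggAgata
All 4 bases occurred at the marked position, and each time they followed gg. In the genetic code, a codon that starts with gg encodes glycine whichever base is in the last position. The stretches listed as junctions are 10 or 11 bases long and do not begin and end at the same place.

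In the gene counts themselves the α-chain segments were poorly covered. Trav11 held at least 5 reads in 17.1% of untreated cells (48 of 280) and Traj18, which is very short, in 7.86% (22 of 280). Trav11d is a near copy of Trav11 and the split of reads between them is uncertain. At least 1 of both was found in 48 cells. The β-chain segments that pair with this α-chain were easier to see. Trbv13-2 was found in 48.2% of cells (95% exact binomial interval 42.2% to 54.2%), Trbv29 in 16.4%, Trbv13-1 in 10.4%, Trbv1 in 5.71% and Trbv13-3 in 3.57%. At least 1 of these 5 segments was found in 82.5% of untreated cells and in 86.9% of treated cells.

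The most abundant transcripts were mostly those of genes with general roles in cells or leukocytes, next to Nkg7, Cxcr6 and TCR constant region genes. Levels of different genes are compared here as counts per kb of exon, scaled to 1000000. After CT010467.1, the highest were Actb at 21086 on this scale, B2m at 18467, H2-D1 at 11997 and Tmsb4x at 10755, followed by Nkg7, a protein of cytotoxic granules, at 10368. Cxcr6 reached 6250 on this scale, close to the elongation factor Eef1a1 at 7164. The phosphatase gene Dusp1 and Id2, a repressor of E proteins that is needed by innate-like lymphocytes, stood at 3987 and 3979. The other genes among the 20 with the highest length-scaled level (mitochondrial and ribosomal protein genes left out) were Pfn1, AW112010, Rac2, Cd52, Trbc1, Trbc2, Coro1a, Ly6a, Gimap4 and Trac, between 2904 and 3936 on this scale. Trac, the constant region of the TCR α-chain, thus stood at the lower end of this range.

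Of the 5 genes by which iNKT cells were to be recognized, 3 were found in most cells. A gene is called found in a cell with at least 5 reads. Nkg7 (chromosome 7, 43437073 to 43438249) was found in 86.4% of untreated cells (81.9% to 90.2%), with 0, 3129 and 35884 counts per 1000000 counts (CPM) in the lowest, median and highest cell. Trac was found in 81.8% (76.8% to 86.1%), with 0, 842 and 7236 CPM, and Cd3e, a signalling chain of the TCR complex, in 78.6% (73.3% to 83.2%), with 0, 153 and 3239 CPM. These 3 genes were found together in 158 cells, and 2 cells held none of them. At least 1 of Trac, Trbc1 and Trbc2 was found in 98.6% of cells, and at least 1 of Cd3d, Cd3e and Cd3g in 95.7%.

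The other 2 markers are transcription factors, and they were rarer. Tbx21 (chromosome 11, 97098071 to 97115331), which encodes T-bet, was found in 29.3% of untreated cells (24.0% to 35.0%). Where it was found, it had a mean of 1606 CPM in those 82 cells and 6063 CPM in the highest. Zbtb16 (chromosome 9, 48654297 to 48836222) was found in 9 of 280 cells, or 3.21% (1.48% to 6.01%), and 25.9% of its counts came from 1 cell. In treated cells Zbtb16 was found in 6.95%, so that it was sparse in both groups. Set against their label, the cells thus held reads of the T cell and granule markers in most cases and of the gene of PLZF, the factor most tied to the iNKT lineage, in few.

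**Figure D1:**
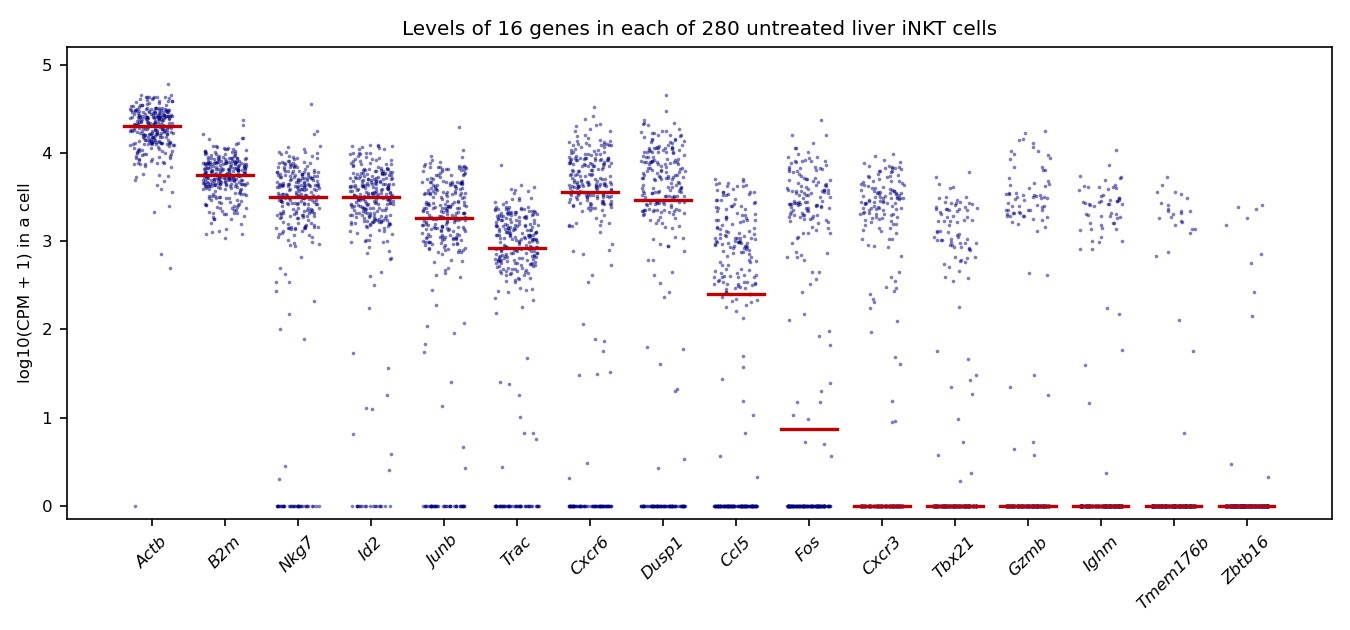
Each point is 1 of the 280 untreated cells; the vertical axis gives log10(CPM + 1) of the gene named on the horizontal axis, and the red line is the median cell. Actb and B2m form 1 cloud with almost no cell at 0, and Nkg7 and Id2 are at 0 in a minority of cells. Gzmb, Ighm, Tmem176b and Zbtb16 are at 0 in most cells and at about 1000 CPM or more in many of those that hold them.

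Markers of hepatocytes, myeloid, endothelial and erythroid cells were at or near 0, whereas some markers of NK cells and ILCs, and Ighm, were not. None of the 6 hepatocyte genes (Alb, Apoa1, Ttr, Serpina1a, Fabp1 and Apoa2) had a read in an untreated cell, which allows a share of up to 1.07% of cells with a read. Here and below, this limit is one on cells with reads and not on cells that express the gene. None of the 3 neutrophil genes and none of the 6 endothelial and stellate genes had a read either. Of the 9 macrophage and dendritic cell genes that the filter did not use, none was found in a cell, and 8 were at 0. Hba-a1, a haemoglobin gene, was found in 1 untreated cell. Among treated cells, 5 held a hepatocyte gene and 15 an erythroid gene. The comparison of the groups below is also given without the cells that hold such a marker.

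Of 5 markers of NK cells and ILCs, Klra4 was found in 19.3% of untreated cells, Ncr1, which encodes the activating receptor NKp46, in 4.64% (13 cells), Tyrobp in 2.86% and Klra8 in 1.79%, and Eomes was at 0. None of the 5 was found in 217 untreated cells (77.5%). The summed level of the list ranged from 0 to 9127 CPM over untreated cells and from 0 to 17083 CPM over treated cells, of which 47.5% held none. After thinning, the 13 cells with Ncr1 held Trac in 84.6% of cases and Cd3e in 69.2%, as compared to 82.8% and 79.8% of the other cells, and they held Gzmb in 76.9% as compared to 22.8%.

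Ighm, the constant region of the IgM heavy chain, is a B cell marker. It was found in 59 untreated cells, or 21.1% (16.4% to 26.3%), with a mean of 2652 CPM in those cells and 10878 CPM in the highest. All 59 cells also held a TCR constant region gene. Cd79b, Ms4a1 and Igkc, which B cells express, were at 0 in every untreated cell, and Cd79a was found in none. In treated cells Ighm was found in 11.2%, and its summed CPM was higher in untreated cells in 6 of 6 sets of cells, which are defined by the prefix of the cell names and the block of 96 library indices (42 to 48 cells in each set and group). The labels do not say what these sets are, and they are not replicates. Cxcr6 was found in 93.2% of the untreated cells with Ighm and in 70.6% of those without (each cell thinned to 100000 counts, as in all comparisons between genes of a cell below), a phi of 0.21.

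Of the subset genes, those of the NKT1 list were found most widely. The lists were chosen with earlier results of these data known, so that the counts per list are not independent evidence of a subset. Of the 20 genes of the NKT1 list, 10 were found in at least 20% of untreated cells and 5 in at least 50%. As compared to this, 0 of 12 NKT2 genes and 0 of 14 NKT17 genes reached 20%, and 696 of all 15085 genes with at least 10 summed counts did so. A cell held a median of 6 NKT1 genes (from 0 to 14), and 95.4% of cells held at least 3. The highest shares after Nkg7 were those of Il2rb, the β-chain of the receptors for IL-2 and IL-15, in 80.4% of cells, the protease Ctsw in 62.1%, the chemokine Ccl5 in 55%, Ms4a4b in 50.4% and the chemokine receptor Cxcr3 in 47.1%. Klrk1, which encodes the activating receptor NKG2D, was found in 35.0%, the chemokine Xcl1 in 32.1% and granzyme B (Gzmb) in 25%. Ifng was found in 52 cells, or 18.6% (14.2% to 23.6%), with a mean of 713 CPM in those cells. At the other end of the list, Klrb1c was found in 4.64%, granzyme A (Gzma) in 3.93% and Ly6c2, with 1 read over all untreated cells, in none.

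NKT2 genes were present in a minority of cells, mostly 1 gene at a time. The highest share on this list was that of Il4, in 24 cells or 8.57% (5.57% to 12.5%), followed by the costimulatory receptor Icos in 7.50%, Lef1 in 7.14%, and Gata3, the transcription factor of type 2 cells, and Plac8 in 5.71% each. Il13 was found in 1 cell and Il17rb, the IL-25 receptor that marks NKT2 cells, in 2 cells. Of 280 cells, 100 held at least 1 NKT2 gene, 17 held at least 2 and 2 held at least 3. Il4 and Ifng were found together in 8 cells, Ifng without Il4 in 44 and Il4 without Ifng in 16.

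Genes of IL-17 production were not read, whereas at least 1 gene of the NKT17 list was found in 68 untreated cells (24.3%), as compared to 9.27% of treated cells. Il17a, Il17f, Il17re, Ccr6, Sdc1, Blk and Itgae were not found in any untreated cell (up to 1.07% each). The 3 NKT17 genes above 5% were Rora in 12.1% of cells, Tmem176b in 9.29% and Tmem176a in 7.14%, of which the last 2 are neighbouring genes for membrane proteins. The starts of Tmem176a (chromosome 6, 48840919 to 48847071, plus strand) and Tmem176b (chromosome 6, 48833818 to 48841496, minus strand) lie 577 bases apart, and the 2 genes overlap there. Whether reads were counted by strand is not given in the sources used here, so that a read in the overlap cannot be told apart. Both genes were found in more untreated than treated cells (1.16% of treated cells for Tmem176b and 1.54% for Tmem176a), and their summed CPM was higher in untreated cells in 6 of 6 sets of cells.

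**Figure D2:**
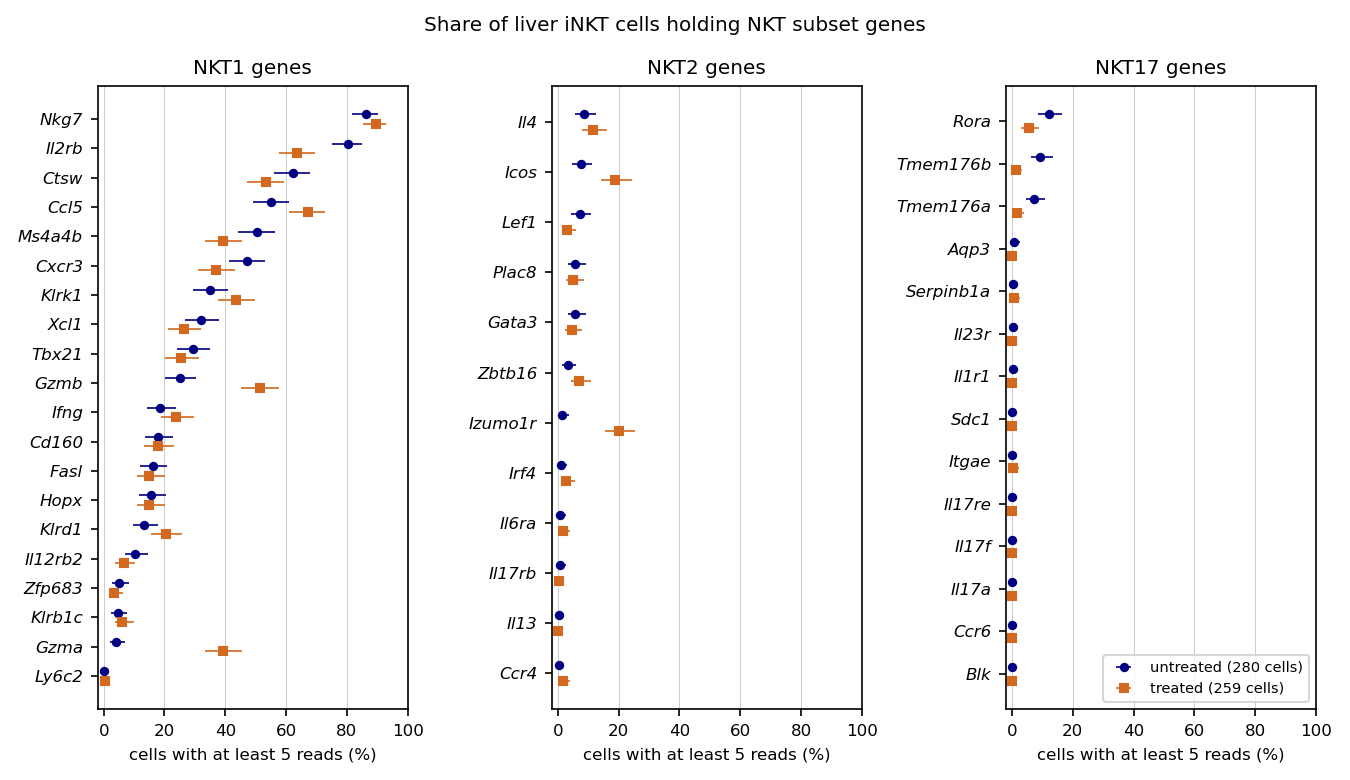
The horizontal axis gives the share of cells with at least 5 reads of each gene of the NKT1, NKT2 and NKT17 lists, with exact binomial 95% intervals for counting error, in untreated (circles) and treated cells (squares). In untreated cells 10 of 20 NKT1 genes are at 20% or more, no NKT2 gene is above 8.57% and no NKT17 gene is above 12.1%.

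The 3 lineage factors Tbx21, Zbtb16 and Gata3 were each found in a minority of cells. None of them was found in 182 cells (65.0%), exactly 1 in 89 cells and 2 or more in 9 cells. Tbx21 alone was found in 73 cells, Zbtb16 alone in 8 and Gata3 alone in 8. In the thinned cells, 8 of the 16 cells with Gata3 also held Tbx21, a phi of 0.11. Counted over the whole lists, 139 cells held NKT1 genes alone, 141 held genes of 2 or more subsets and 26 held genes of all 3. The same count in treated cells was 125 of 259 for 2 or more subsets, or 48.3% as compared to 50.4% in untreated cells. However, 279 of 280 untreated cells and 255 of 259 treated cells held an NKT1 gene. The counts of 2 or more subsets thus follow the NKT2 and NKT17 genes and cannot show a mixed identity. At least 1 NKT2 gene was held by 35.7% of untreated cells, as compared to 44.4% after treatment. For NKT17 genes the shares went the other way, at 24.3% and 9.27%. Among the other lineage factors, Id2 was found in 92.5% of untreated cells, Runx1 and Bhlhe40 in 13.6% each, Runx3 in 9.29% and Tcf7 in 4.29%, and Eomes, Myb and Foxp3 in none.

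Coreceptors were sparse. Cd4 was found in 13 untreated cells, or 4.64% (2.49% to 7.81%), as compared to 13.5% of treated cells, and Cd8a in 3 cells. Cd8b1 was at 0. The 13 cells with Cd4 held Tbx21 in 46.2% of cases and Cxcr6 in 92.3%, and none of them held Klra1, Klra5, Fcer1g or Gzma, which were found in 18.4%, 11.6%, 12.7% and 4.12% of the other cells. With 13 cells these zeros say little.

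Apart from Ltb, each cytokine transcript was found in a minority of untreated cells. Ltb, which encodes lymphotoxin β, was found in 67.5% of cells, and Tnfsf14, which encodes LIGHT, in 21.4%. Apart from Ltb, Tnfsf14 and Tgfb1, at least 1 cytokine of the list was found in 96 cells (34.3%). Tnf was found in 6.43%, Csf2 in 3.21% and Il2 in 1 cell. Il10 and Il21 had no read in 280 cells (up to 1.07% of cells with a read, each), whereas they were found in 15.4% and 12.4% of treated cells. Of the chemokines, Ccl5 and Xcl1 were frequent (above), Ccl4 was found in 6.07% and Ccl3 in 1.79%.

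Some genes of the cytotoxic list were found in most cells, whereas granzymes and perforin were found in a minority. Nkg7, Ctsw, Srgn (the granule proteoglycan serglycin) and Ctsd were each found in more than 50% of cells. Granzymes of any kind were found in 77 cells (27.5%), of which Gzmb was found in 70, and perforin (Prf1) was found in 6.43%. Where Gzmb was found its mean was 4408 CPM, and where Gzma was found, in 11 cells, it was 6131 CPM, with 36.6% of all Gzma counts in 1 cell. Fasl was found in 16.1%. NK receptors varied more between cells: a median of 1 of the 20 genes was found in a cell (from 0 to 11), and 117 cells held none. Klrk1 (35.0%), Klre1 (21.1%), Klra1 (17.9%) and Klrd1 (13.2%) led this list. The Klra genes encode Ly49 receptors and are close copies of each other, so that reads may be split between them.

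Cxcr6 led the list of homing and residency genes, and receptors for egress were rarely read. Cxcr6 (chromosome 9, 123806475 to 123811760) was found in 75% of untreated cells (69.5% to 80%), with 0, 3607 and 32724 CPM in the lowest, median and highest cell. The early activation and retention gene Cd69 was found in 36.1%, and 75 cells held Cd69 and Cxcr6. The share of cells with Cd69 was 35.5% among those with Cxcr6 and 37.7% among those without (thinned), a phi of -0.02. The integrin genes Itgb2 and Itgal were found in 43.6% and 41.4%. S1pr1 and S1pr5, receptors for egress from tissues, and Ccr7, a lymph node homing gene, were found in 5 cells counted together (1.79%), as compared to 14.3% of treated cells. Klf2, a transcription factor that promotes S1pr1 expression, was found in 10.4% of untreated and in 8.88% of treated cells. Itga1 and Itgae, which mark other resident T cells, were found in 5.71% and 0% (up to 1.07%).

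Receptors for cytokines of the common γ-chain were widely found. Il2rg was found in 76.4% of cells next to Il2rb in 80.4%, whereas the α-chains were rarer, with Il2ra in 16.1% and Il7r in 11.8%. Ifngr1 was found in 30.4%, Il27ra in 23.2%, Il18r1 in 15.0%, Il21r in 13.6%, Il4ra in 11.1% and Il12rb2 in 10.4%. Most of these genes were found in fewer treated cells (below).

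Immediate early genes, transcription factors and feedback inhibitors whose mRNA is known to appear within minutes of a stimulus, varied from genes in most untreated cells to genes in few, with 4 of 16 found in at least 50% of cells and a median share of 35.5%. Junb was found in 85.4% of cells, Dusp1 in 71.8%, Ier2 in 54.6%, Fos in 50%, Zfp36 in 49.3%, Jun in 46.1% and Egr1 in 45.4%. A cell held a median of 5 of the 16 genes of this list (from 0 to 14), and 3 cells held none. Fos ranged from 0 over 6.46 in the median cell to 23565 CPM, with a mean of 3836 CPM in the cells that held it. The orphan receptor genes Nr4a1 and Nr4a3, which follow TCR signals, were found in 10.0% and 6.43%, and Nr4a2 in 1.43%. The heat shock genes Hspa1a and Hspa1b were found in 10.0% and 11.8%. Jund was at 0 in all untreated cells and had 1 count over all treated cells, and whether the annotation or the counting left it out is not given in the sources used here. Fos and Jun were found together in 75 cells, and both were missing in 86.

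Among genes found in 10% to 50% of untreated cells, the 10 with the highest mean in the cells that held them included lymphocyte genes and genes of general function. They were Gzmb (4408 CPM in 25% of cells), Fos, Sdha (3542 CPM in 13.9%), Itgb2 (3453 CPM), Cd96 (3274 CPM in 14.6%), Sdcbp (3261 CPM in 16.1%), Cxcr3 (3127 CPM in 47.1%), Itgb7 (3086 CPM in 31.8%), Psmd2 (3071 CPM in 11.8%) and Cd69 (3014 CPM in 36.1%). Sdha, a subunit of succinate dehydrogenase, and Psmd2, a proteasome subunit, have general roles in cells. Unlike the levels per kb of exon above, these means are not scaled by length, so that the ranking also depends on the length of the genes.

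Co-detection of genes between cells was weak for most pairs. It is given as phi, the correlation of presence and absence over 280 cells thinned to 100000 counts. The cells share library preparation and differ in the number of genes detected, and cells are not replicates. The median phi over all 102831 pairs of protein-coding genes found in 20% to 80% of cells was 0.03. Of 35 pairs of genes on a fixed list, 34 had a value, with a median of 0.07 (from -0.07 to 0.33). The list also holds pairs with no known tie of joint expression, such as Cd4 with Gzma (-0.04) and with Cd8a (-0.02). Its median is therefore not that of tied genes. The 5 pairs at 0.2 or more were Tmem176a with Tmem176b (0.33), Ccl3 with Ccl4 (0.28), Ccl4 with Ccl5 (0.22), and Ifng with Tbx21 and with Xcl1 (0.21 each). Called at 5 reads without thinning, the last 2 were at 0.18 and 0.16, and in treated cells their thinned values were 0.0039 and -0.195. Ifng was found in 26 of the 81 cells with Tbx21, and Tbx21 in 48.1% of cells with Ifng as compared to 24.3% of those without. Fos and Jun had a phi of 0.16, Cxcr3 and Cxcr6 of 0.16, and Ifng and Il4 of 0.11.

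Among the 566 genes of any kind found in 20% to 80% of cells, the 10 highest values of phi belonged to genes and their near copies, such as Atp5g1 with Gm10039 (0.99), Eno1 with Eno1b (0.95), Tcrg-C2 with Tcrg-C3 (0.95) and Gpx4 with Gpx4-ps2 (0.93). A read that matches both copies can be assigned to either, so that these values say nothing of the cells. Protein-coding pairs were therefore ranked apart, a choice made after the values were seen. Among coding genes in 20% to 80% of cells and beyond gene copies (Eno1, Tpm3 and the H2 genes), the highest values were those of Cd7 with Klre1 (0.36) and with Gzmb (0.33), and of Fosb with Jun (0.31). Pairs of other genes had values close to these, such as Srsf7 with Stip1 (0.31) and Rack1 with Park7 (0.30).

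Cd7 with Klre1 and Gzmb, and Fosb with Jun, belong to 2 sets of genes, also chosen after their values were seen and therefore given with no test. The first set joins Gzmb, Ccl5 and Xcl1 with the receptor genes Cd7, Klre1, Klrd1, Klra1 and Fcer1g, the last an adaptor of activating NK receptors. The 28 pairs of the first set had a median phi of 0.25 (from 0.17 to 0.37), the highest being that of Klrd1 with Fcer1g. Other genes with values in this range were left out of the set. Anxa2 had a phi of 0.30 with Cd7, 0.29 with Ccl5 and 0.28 with Gzmb. Rgs1 had 0.30 with Gzmb, and Klra4 had 0.30 with Klre1. The set is therefore a choice among the genes found together with its members. Of the cells with Gzmb, 54.9% held Xcl1, 28.2% Klrd1 and 33.8% Klra1, as compared to 24.4%, 8.13% and 12% of the cells without Gzmb. Tbx21 was spread more evenly over cells with Gzmb (35.2%) and without (26.8%), but not over those with Xcl1 (43.3%) and without (22.1%). The phi of Tbx21 with the 8 genes ranged from 0.0040 (Fcer1g) to 0.22 (Xcl1). Counted at 5 reads, 75 untreated cells held none of the 8 genes, 96 held 3 or more and 35 (12.5%) held 5 or more, as compared to 106 (40.9%) treated cells with 5 or more. In treated cells the median phi of the 28 pairs was 0.33. The 11 untreated cells with Gzma all held Ccl5, and 63.6% of them held Klra1, as compared to 15.6% of the other cells.

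The second set holds the immediate early genes Fos, Fosb, Jun, Egr1 and Dusp1, whose 10 pairs had a median phi of 0.18 (from 0.07 to 0.31) and of 0.10 in treated cells. Jun was found in 74.6% of the cells with Fosb and in 37.8% of those without, and the phi of this pair was 0.09 in treated cells. Between the 2 sets the median phi over 40 pairs was -0.04 (from -0.15 to 0.10), as compared to 0.03 over all pairs of coding genes. Of the 40, 11 were above 0.

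**Figure D3:**
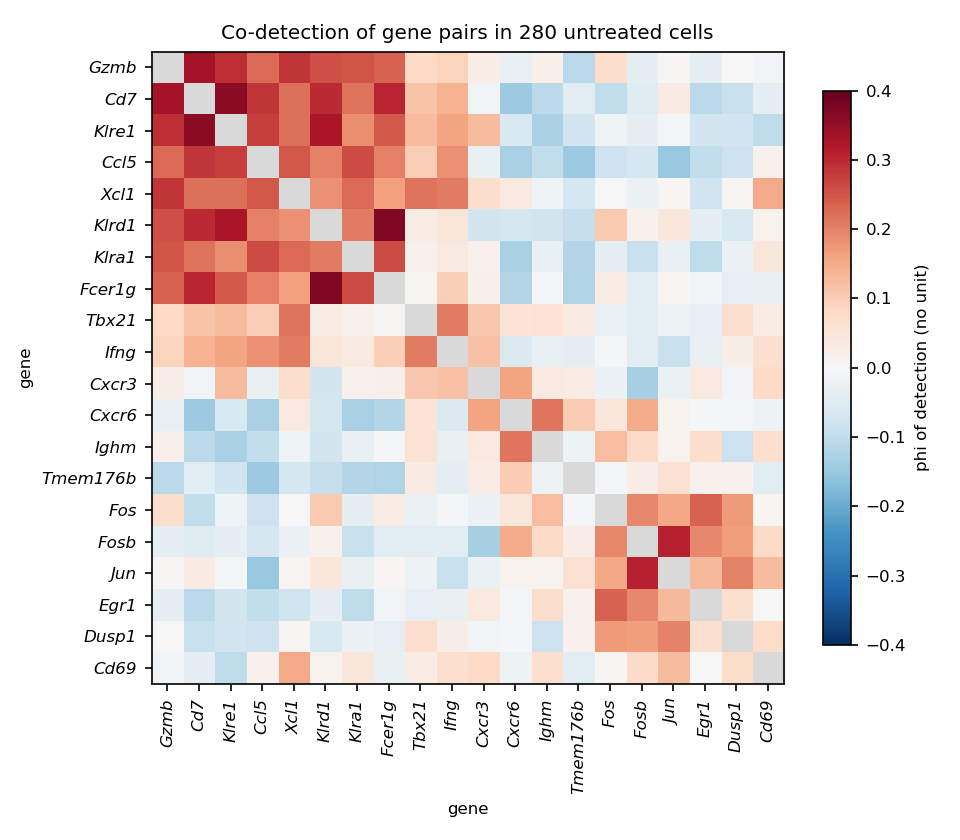
Each square gives the phi of a pair of genes over the 280 untreated cells thinned to 100000 counts, on a colour scale from -0.4 (blue) to 0.4 (red), with the diagonal in grey. The 8 genes at the upper left (Gzmb to Fcer1g) have values of 0.17 to 0.37 with each other, the immediate early genes at the lower right have values of 0.07 to 0.31, and most other pairs lie near 0.

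The treated cells serve as the reference for the untreated cells, and with 1 sample per group they cannot show what is particular to a resting state. Among the 15085 genes with at least 10 summed counts in both groups together, 2484 were at least 2-fold higher in untreated cells (16.5% of genes) and 2872 at least 2-fold lower (19.0%), on the scale of log2(CPM + 1) of the summed counts. Many of these genes were read in a handful of cells. Among the 804 more abundant genes (at least 500 summed counts and found in no fewer than 20% of the cells of 1 of the groups), 19 (2.36%) were at least 2-fold higher in untreated cells and 39 (4.85%) at least 2-fold lower. Of these, 17 of the 19 and 29 of the 39 had the same direction in all 6 sets of cells. Over all 804 genes, 56 were higher and 67 were lower in untreated cells in every set. The sets are parts of the same cells that gave the ratios. Agreement between the sets and the whole, here and elsewhere in the text, is therefore no independent check.

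Immediate early genes were higher in untreated cells or differed by less than 2-fold. Of the 15 genes of the list with at least 10 counts, 6 were at least 2-fold higher and none was at least 2-fold lower, with a median log2 ratio of 0.83 as compared to -0.02 over all genes tested. Of all genes tested, 16.5% were at least 2-fold higher and 19.0% at least 2-fold lower. Egr1 was found in 45.4% of untreated cells, as compared to 28.6% of treated cells, with 956 and 216 CPM, a log2 ratio of 2.14. Jun was found in 46.1% and 19.7%, with 1036 and 310 CPM, and Fos in 50% and 23.2%, with 1940 and 603 CPM, log2 ratios of 1.74 and 1.68. Fos and Jun were found together in 26.8% of untreated cells, as compared to 6.18% of treated cells. These 3 genes, Junb and Dusp1 were higher in untreated cells in 6 of 6 sets. The shares of cells with Fos ranged from 39.6% to 60.4% over the untreated sets and from 14% to 31.8% over the treated sets. The shares of cells with Egr1 overlapped between the sets of the 2 groups. The share of all genes whose sets do not overlap was not computed.

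Cxcr6, Cd69 and several cytokine receptors were also higher in the untreated cells, while the homing and residency list as a whole went both ways. Of its 19 genes, 5 were at least 2-fold higher and 6 at least 2-fold lower, with a median log2 ratio of 0.10. Cxcr6 was found in 75% of untreated cells and in 47.1% of treated cells, with 4553 and 2044 CPM (log2 ratio 1.16, higher in 6 of 6 sets). Cd69 was found in 36.1% and in 20.1% (log2 ratio 1.40, 6 of 6 sets). Of the 16 cytokine receptor genes, 5 were at least 2-fold higher in untreated cells and 3 at least 2-fold lower, with a median log2 ratio of 0.77. Over all genes tested the shares were 16.5% and 19.0%, and 3 of 16 is near the latter. The 5 were Il18r1 (2.11, in 5.02% of treated cells), Il4ra (2.01, 3.86%), Il2ra (1.58, 4.63%), Ifngr1 (1.46, 14.3%) and Il7r (1.17, 5.41%), and the 3 lower genes were Il15ra, Il10ra and Tgfbr1, each found in under 2% of untreated cells. Ifngr1, the ligand-binding chain of the IFN-γ receptor, had 825 CPM as compared to 300 CPM in the treated group. Id2 was found in 92.5% as compared to 74.9%, but its summed level differed by a log2 ratio of 0.41 and was higher in 4 of 6 sets.

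By the rule for named genes, the 10 genes with the largest ratios in favour of untreated cells were Egr1, Tuba4a (1.80), Tsc22d3 (1.77), Jun, Fos, Lyst (1.64), Sit1 (1.62), Tnfsf14 (1.59), Ifngr1 and Ramp1 (1.46). Tsc22d3 encodes GILZ, a target of glucocorticoids, and was found in 30.7% of untreated cells, as compared to 15.4% of treated cells. Lyst, a regulator of lysosome size, was found in 21.8% and 5.02%, and Ramp1, part of the receptor for the neuropeptide CGRP, in 24.6% and 8.11%. Sit1, a membrane adaptor that dampens TCR signals, was found in 23.6% and 9.27%, and Tuba4a, an α-tubulin, in 25.4% and 8.49%.

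NK receptor genes, the granzymes Gzma, Gzmb and Gzmk and 3 of 5 chemokines were lower in untreated cells. Of the 20 NK receptor genes, 15 were at least 2-fold lower and none at least 2-fold higher, with a median log2 ratio of -1.49. Over all genes tested, 19.0% were at least 2-fold lower and 16.5% higher, which is also the background of the counts of chemokines and of NK and ILC markers that follow. Klra5 was found in 9.64% of untreated cells, as compared to 33.6% of treated cells (-2.64), Fcer1g in 11.8% and 40.2% (-1.81) and Klre1 in 21.1% and 37.1% (-1.15), each lower in all 6 sets. Gzma was found in 3.93% and 39.4% of cells, with 173 and 3839 CPM (-4.47), and Gzmb in 25% and 51.4%, with 1139 and 3289 CPM (-1.53). Over the sets, the shares with Gzma lay between 2.08% and 6.82% in untreated cells and between 31.8% and 50% in treated cells. Of the 5 chemokine genes, Ccl3, Ccl4 and Ccl5 were at least 2-fold lower and none was higher by that much. Ccl4 was found in 6.07% and 23.2% of cells (-2.15) and Ccl5 in 55% and 67.2% (-1.60), whereas Xcl1 was found in 32.1% and 26.3% (0.23). The markers of NK cells and ILCs moved with these genes: 3 of the 4 with at least 10 counts were at least 2-fold lower in untreated cells (median log2 ratio -2.05), with summed levels of 271 and 998 CPM, and Ncr1 was found in 13 untreated and 48 treated cells. Their part in the result was not tested. The log2 ratios of Nkg7 (-0.14), Tbx21 (-0.03) and Trac (0.02) were near 0, and their direction differed between sets.

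The checkpoint and TR1-like genes, several of which the study describes in the treated cells and which are therefore not independent evidence of their direction, were lower in untreated cells. None of the 16 genes of this list was found in 204 untreated cells (72.9%), as compared to 28.6% of treated cells. Of 15 such genes with at least 10 counts, 12 were at least 2-fold lower in untreated cells and none was higher by that much, with a median log2 ratio of -4.53 (-4.64 with the genes at 0 set to a floor of 3 counts over the group). Over all genes tested, 19.0% were at least 2-fold lower and 16.5% at least 2-fold higher. Lag3, Ctla4, Il10, Il21, Vdr and Tnfrsf4 had no read in any untreated cell (up to 1.07% of cells with a read), and were found in 24.7%, 4.63%, 15.4%, 12.4%, 4.25% and 7.34% of treated cells. Pdcd1, which encodes PD-1, was found in 2.14% of untreated cells, as compared to 22.8% of treated cells (-4.53), Izumo1r, the folate receptor 4 gene, in 1.43% and 20.1% (-4.64), Itga4 in 2.86% and 21.6% (-3.45) and the transcription factor Maf in 4.64% and 23.9% (-2.19). Vsir, which encodes the inhibitory protein VISTA, was found in 6.79% and 30.5% (-2.76). At least 1 of Pdcd1, Lag3, Ctla4, Tigit and Havcr2 was found in 8 untreated cells (2.86%) and in 40.9% of treated cells.

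**Figure D4:**
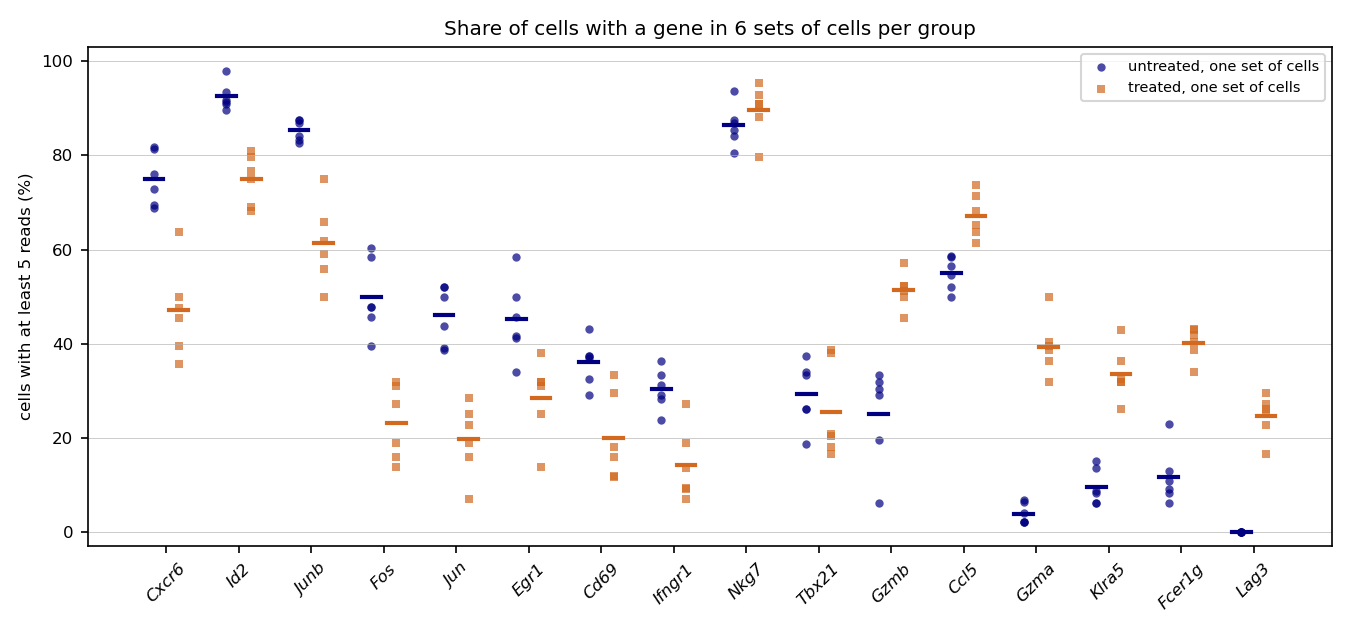
The vertical axis gives the share of cells with at least 5 reads of a gene in each of 6 sets of cells (points) and over all cells (bars) for untreated (circles) and treated cells (squares). The points of the groups do not overlap for Id2, Junb, Fos, Jun, Cxcr6, Gzmb, Ccl5, Gzma, Klra5, Fcer1g and Lag3, and they overlap for Egr1, Cd69, Ifngr1, Nkg7 and Tbx21. The genes shown were picked, and the share of all genes without overlap was not computed, so that no result about these genes follows from the overlap.

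The remaining lists were mixed. Of the 18 TCR complex and T cell signalling genes, 1 was at least 2-fold lower in untreated cells and none was higher by that much (median log2 ratio -0.16), and of 8 housekeeping genes none passed in either direction (median -0.10). Of the 20 NKT1 genes, 5 were at least 2-fold lower (Gzma, Gzmb, Ccl5, Klrd1 and Ly6c2) and none was higher, as compared to 19.0% and 16.5% of all genes tested. Of the 12 NKT2 genes, 6 were lower and 2, a share near that of all genes, were higher, Lef1 (2.05, in 7.14% of untreated and 3.09% of treated cells) and Il17rb, which was found in 2 untreated cells and had the opposite direction in the cells of name prefix 2 (-0.42). Of the 8 NKT17 genes with at least 10 counts, 5 were higher and 2 were lower (median log2 ratio 1.29, or 2.68 with genes at 0 set to the floor), but Il1r1, Aqp3 and Tmem176a were found in 1, 2 and 20 untreated cells. Without the cells that hold a hepatocyte or erythroid gene, 2574 genes were at least 2-fold higher in untreated cells and 2726 were at least 2-fold lower.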

How the data were processed

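The untreated and the treated group were each measured as 1 pooled sample of single cells (SmartSeq2), deposited as a table of whole read counts per gene and cell. Per the labels and methods, the authors aligned the reads and counted them per gene with STAR, and the build listed is GRCm38.p6. The annotation release and the settings of the counting, strand included, are not given in the sources used here. Counts carry no molecular identifiers, so that intervals cover counting error only, and reads are not independent molecules.

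Cells with at least 100000 counts and fewer than 100 counts of Lyz2, C1qa and Csf1r summed were kept. Cells had been sorted singly and no doublets were removed. Gene names were matched by identifier. A gene was found in a cell with at least 5 reads, and shares carry exact binomial 95% intervals. For co-detection, each cell was thinned to 100000 counts with a fixed seed and a gene counted as present with 1 read. Group levels are CPM of counts summed over cells, and log2 ratios were taken with a prior of 1 CPM. With 1 sample per group no difference was tested. The calculation of the ratios was checked on simulated counts with known folds. These were drawn with the same spread between cells for every gene. The check thus does not cover the uneven levels of genes such as Fos or the rate of false calls. Python 3.11.15, numpy 2.4.6, pandas 2.3.3, scipy 1.17.1 and matplotlib 3.10.9 were used.

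Named genes are those of gene lists (identity, TCR complex, coreceptors, NKT1, NKT2, NKT17, NKTFH, NKT10, lineage factors, cytokines, chemokines, cytotoxic genes, NK receptors, homing, cytokine receptors, checkpoints and TR1-like, immediate early, housekeeping and markers of other cells) and of gene pairs. They also include the 20 genes with the highest length-scaled level, and the 10 genes with the largest ratio in each direction. The latter were taken among genes with at least 500 counts over both groups and 1 direction in all 6 sets. These genes also had to be found in at least 20% of the cells of at least 1 group. The 10 pairs with the highest phi and the 10 genes with the highest mean among those found in 10% to 50% of cells complete the rule. Some items are not reported here and were left out of the lists and pairs. The members and lists were chosen with earlier results of these data known. TCR segments, the Ighm profile and the sets of co-detected genes were chosen after their values were seen. Of the lists not described elsewhere, NKT10 had 5 of 5 genes and NKTFH 2 of 3 genes at least 2-fold lower in untreated cells, as compared to 19.0% of all genes tested. In untreated cells, 4 of the 5 NKT10 genes and 2 of the 4 NKTFH genes were at 0. TCR junction sequences come from the study's supplement, and gene positions from the GENCODE annotation of GRCm38.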

Additional observations from a re-analysis of the deposited data

How the results depend on the processing

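In the 73 untreated cells that held 1000 or more genes and less than 10% of mitochondrial counts, the shares with a marker were higher, at 91.8% for Nkg7, 90.4% for Trac, 84.9% for Cd3e and 39.7% for Tbx21. Cd3e was found in 72.5% of cells when 20 reads were required. In the cells of name prefix 2, Cd3e was found in 83.7% and Tbx21 in 35.9%. A prior of 10 CPM left 1008 genes at least 2-fold higher and 1177 at least 2-fold lower, by construction. The other alternatives gave 2128 to 2984 higher and 2402 to 3366 lower genes. In the cells of name prefix 2 alone, the log2 ratio was -0.42 for Il17rb, 3.51 for Serpinb1a, 0.041 for Il2 and -1.67 for Lta, each opposite to the value over all cells, and the cause was not tested. These genes were found in few cells. Of the log2 ratios under the alternatives, 1331 were classed as moved from the main value, 247 as the same and 4 as reversed. Of the CPM levels, 23 were classed as moved and 1 as the same. Among shares of cells, 75 were classed as moved and 477 as the same, and among those of the main results 7 and 23. The exact log2 ratios and CPM levels thus depend on the processing. Scaling by a median of ratios over 163 genes changed the scale between the groups by 0.09 (log2) and moved the median log2 ratio of all genes from -0.02 to -0.06, and phi changed by at most 0.05 over 44 pairs without thinning. Leaving out CT010467.1 from the totals, or the cells with hepatocyte or erythroid genes, was chosen after seeing the data and kept both counts within 1.5 times. No paired analysis was possible because each group is 1 pooled sample. The limits are the single sample per group, the unknown mouse of each cell, and the depth: a gene read in no cell allows up to 1.07% of cells with a read, and sets no limit on the cells that express it.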
